A study of Mus musculus with 4 samples.

Results

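The genes described here encode the proteins of the cytosolic ribosome. They were chosen by symbol from the 21951 protein-coding genes of the GENCODE M21 annotation: Rpl or Rps followed by a number and optional letters, together with Rplp0, Rplp1, Rplp2 and Rpsa, which gave 82 genes. Kinases of the Rps6k family, Rps19bp1 and symbols that end in -ps were left out, and the rule does not reach genes such as Rps3a1 and Fau, whose products are also ribosomal. Promoter accessibility was measured by ATAC-seq, in which a transposase cuts and tags open chromatin, in 2 tumors grown in Esm1 knockout (KO) hosts and 2 tumors grown in wild type (WT) hosts. All hosts were mice of the C57BL/6 strain, and all tumors came from intracranial injection of mG7080, a murine glioblastoma (GBM) line. The hosts were young adults per the study's methods, whose sections differ in the age range, and no treatment beyond the injection is given for these 4 tumors. The knockout belongs to the host, so in both groups the injected cells carried their own Esm1, the gene for the secreted proteoglycan Endocan. All tumors go back to 1 cell line, and the p-values below rest on the spread between the 2 tumors of a group. For each gene, limma pulls that spread toward a trend over all tested promoters of like height or width. The comparison asks whether tumors that grew without host Endocan differ at these promoters from tumors that grew with it.

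The cytosolic ribosome has a small subunit, which reads the mRNA, and a large subunit, which joins amino acids and carries an acidic stalk of P proteins that recruits translation factors. Its proteins are made in equal amounts, and in dividing cells their mRNAs are among the most abundant. Most of these mRNAs begin with a C and a run of pyrimidines, the terminal oligopyrimidine (TOP) motif, through which mTOR signalling controls their translation. Transcription of ribosomal protein genes is known to respond to MYC, and their promoters are broadly active CpG islands that mostly lack a TATA box.

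Sequences near the start were available from RefSeq (GRCm38.p6) for 62 of the 82 genes, 58 of them with a promoter peak in every library. A promoter window ran from 250 bases before to 50 bases after a start, and a gene counted where any of its windows held the motif. The 6 sequences that follow show the feature most of these promoters shared. Each runs from 60 bases before the annotated start through 30 bases of transcript, and the capitals mark the pyrimidine tract that opens with a C close to the start.
Rpl13a: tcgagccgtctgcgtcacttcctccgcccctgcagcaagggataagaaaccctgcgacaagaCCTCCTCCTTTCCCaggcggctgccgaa
Rps6: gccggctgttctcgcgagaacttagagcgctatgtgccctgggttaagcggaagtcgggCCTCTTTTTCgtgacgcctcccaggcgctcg
Rplp2: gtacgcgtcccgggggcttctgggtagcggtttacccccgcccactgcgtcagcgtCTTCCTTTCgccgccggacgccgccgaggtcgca
Rpl28: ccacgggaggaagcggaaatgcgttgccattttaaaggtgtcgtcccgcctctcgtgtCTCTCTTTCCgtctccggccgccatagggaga
Rpl15: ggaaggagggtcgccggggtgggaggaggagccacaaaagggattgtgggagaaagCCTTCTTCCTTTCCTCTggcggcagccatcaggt
Rps10: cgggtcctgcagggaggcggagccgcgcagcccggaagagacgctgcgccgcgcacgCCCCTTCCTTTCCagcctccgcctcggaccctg
They lie at chr7:45128716-45128805 (Rpl13a, minus strand), chr4:86857338-86857427 (Rps6, minus), chr7:141447591-141447680 (Rplp2, plus), chr7:4792905-4792994 (Rpl28, plus), chr14:18270957-18271046 (Rpl15, minus) and chr17:27635215-27635304 (Rps10, minus).

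Such a tract, a C followed by at least 4 pyrimidines and beginning within 10 bases of the start on the gene strand, was present at 35 of the 58 open ribosomal protein genes (60.3%), against 3796 of 10360 promoters open in every library (36.6%) and 35.2% of all 16522 genes with a window. The other motifs were searched on both strands, except TATAAA on the gene strand only, and none of them contains another. CCGGAAG, the core bound by ETS factors, was found at 24 of the 58 genes (41.4%), against 19.4% of open promoters and 13.4% of all. The palindrome CTCGCGAG, which also stands in the Rps6 sequence above, was found at 7 genes (12.1%), against 2.18% and 1.45%. These 7 genes were Rpl10a, Rpl12, Rpl26, Rpl27a, Rps6, Rps19 and Rps28. TGACGTCA, the cAMP response element, was found at 5 genes (8.62%), against 3.74% and 2.64%. AAGATGGCG, a YY1 site, was found at 3 genes (5.17%), against 3.45% and 2.25%. The E-box CACGTG, bound by MYC with MAX, was found at 6 genes (10.3%), against 11.7% and 9.18%. GGGCGGGG, bound by SP and KLF factors, was less frequent at these genes (17 of 58, 29.3%) than at open promoters (37.9%) and close to the share of all (27.1%). ACCAAT (NFY) stood at 15.5% of them, against 14.4% and 13.7%, and GCATGCGC (NRF1) at 5.17%, against 6.04% and 4.11%. ACTACAATT (ZNF143) was found at 0 of 58, against 0.849% and 0.605%, and TATAAA placed 40 to 20 bases before the start at 0 of 58, against 1.28% and 3.01%. In base composition the open ribosomal protein promoters had a median CpG observed over expected ratio of 0.890, against 0.757 at open promoters, and a median GC content of 57.5%, against 61.3%. These shares are descriptions of the windows and were not tested.

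Before the promoters, the libraries themselves differed in depth. The files give no read counts. The height of a peak, the number of overlapping read ends at its summit, was recovered from its fold and p-value. The libraries held between 63000 peaks (WT tumor 1) and 100088 peaks (WT tumor 2), and the background of the genome differed 1.55-fold between the deepest and the shallowest library, which was WT tumor 1. Heights below are therefore given as read ends, as percentiles among the 13310 promoters open in all 4 libraries, or as log2 values centred on the library median of those promoters. Neural and glioma markers (Olig2, Sox2, Nes, Sox10 and Pdgfra) had a promoter peak for 4 to 5 of 5 genes in each library. Endothelial markers had one for 1 and 2 of 6 genes in KO tumors and for 1 and 3 in WT tumors, with Cdh5, Pecam1 and Tek at 0 throughout. Neuron markers had one for 3 of 4 genes in each library. Oligodendrocyte markers had one for 1 and 1 of 4 genes in KO tumors and for 3 and 1 in WT tumors. Microglia and macrophage markers had one for 1 and 2 of 6 genes in KO tumors and for 0 and 1 in WT tumors. T cell markers had none in any library. The Esm1 promoter had no peak in any of the 4 libraries, so it does not check the genotype labels, and the groups and the sign of every difference rest on the labels alone. In bulk tumor libraries, fewer cells with an open promoter and less accessibility per cell cannot be told apart.

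At 78 of the 82 ribosomal protein genes the promoter, defined as 1000 bp on either side of any annotated start, held a peak in every library. A promoter peak in all 4 libraries was found for 60.6% of all protein-coding genes, and in no library for 32.8%. None of the 82 genes was open in both KO tumors and neither WT tumor (0.296% of all genes), and none was open in both WT tumors and neither KO tumor (0.132%). The open genes included every core protein of both subunits that the rule reached, among them Rps6, the substrate of S6 kinase, Rpl3, which lies next to the peptidyl transferase centre, and Rpsa, also known as the laminin receptor. They also included 2 paralogs, Rps27l and Rpl36al. Rps27l had 66 and 93 read ends in KO tumors, against 65 and 78 in WT tumors. Rpl36al had 101 and 108 in KO tumors, against 100 and 117 in WT tumors. For both paralogs the groups overlapped.

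The 4 genes with no promoter peak in any library were Rpl3l, Rpl10l, Rpl39l and Rps27rt, each a second copy of a gene that was open. Rpl3l (chr17:24727820-24736143) is the striated muscle paralog of Rpl3, and Rpl10l (chr12:66283379-66284401) and Rpl39l (chr16:10170226-10174911) are known from the testis. Rps27rt (chr9:114982366-114982739) is a retrogene, a copy made from the spliced mRNA. The next sequences show where the retrogene and its parent Rps27 match, with the capitals marking the shared run.
Rps27rt: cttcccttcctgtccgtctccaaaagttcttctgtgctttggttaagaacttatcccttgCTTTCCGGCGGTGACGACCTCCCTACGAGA
Rps27: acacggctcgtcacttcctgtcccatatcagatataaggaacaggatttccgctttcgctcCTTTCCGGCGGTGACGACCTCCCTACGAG
They lie at chr9:114982710-114982799 (Rps27rt, minus strand) and chr3:90213619-90213708 (Rps27, minus). The longest run shared by the 2 windows was 38 bases, and it began at the annotated start of Rps27rt and 1 base after that of Rps27, so none of it lay before either start. Between Rpl10l and Rpl10, and between Rpl39l and Rpl39, the longest shared run was 8 bases. The parent Rps27 had 69 and 90 read ends in KO tumors, against 65 and 101 in WT tumors. Rps27rt had no peak in its promoter, and with a window of 2500 bp on either side it had 1 peak, of 57 read ends, in WT tumor 2 only. Ribosomal protein genes have many such processed copies in the genome, and the transcribed bases of a promoter window can match them. How reads that map to several places were shared is not given for these peak lists, and its part in the heights was not tested.

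Among open promoters, those of ribosomal protein genes were moderately tall and much alike. Their median height was 80 and 92.5 read ends in KO tumors 1 and 2, against 74.5 and 98 in WT tumors 1 and 2. All open promoters had 75 and 87 in KO tumors, against 65 and 87 in WT tumors. The median of the mean height percentile was 60.7 for the 78 genes. Of these genes, 7 ranked above the 90th percentile, 28 below the median and 3 below the 25th percentile. The standard deviation of mean log2 height over genes was 0.35 for ribosomal protein genes and 0.59 for all open promoters. The related lists described below lay between these, so a narrow spread was not particular to ribosomal protein genes. The value was 0.37 for ribosome biogenesis genes, 0.41 for translation factors and 0.46 for mitochondrial ribosomal protein genes. For further TOP genes it was 0.46 and for mTOR genes 0.50. The small subunit (31 genes, median percentile 61.7), the large subunit (44 genes, 59.9) and the P stalk (3 genes, 66.8) lay close together.

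**Figure D1:**
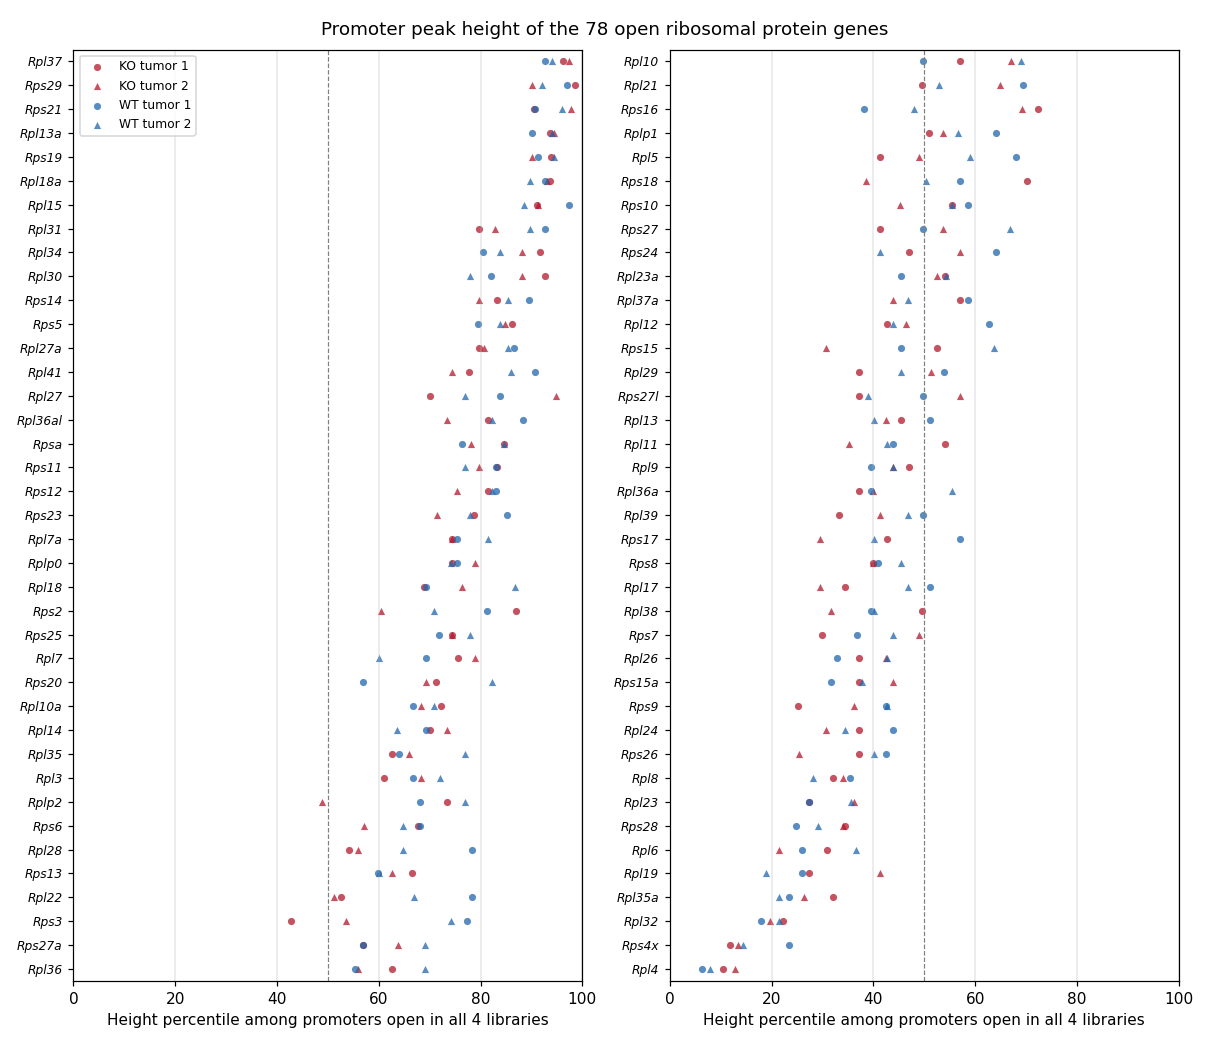
Height percentile of the tallest promoter peak (horizontal axis, percent, among the 13310 promoters open in all 4 libraries) for each of the 78 open ribosomal protein genes, with 1 point per tumor, KO in red and WT in blue, genes ordered by their mean. The genes spread from Rpl37 at 95.1 down to Rpl4 at 9.37. The points of the 4 tumors lie close together at some genes, such as Rpl13a (90.1 to 94.5), and farther apart at others, such as Rps16 (38.1 to 72.3).

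The tallest promoters by mean centred log2 height were those of Rps29, Rpl37 and Rps21, all genes for very small proteins. Rps29, a zinc-binding protein of the small subunit, had 137 and 130 read ends in KO tumors, against 120 and 133 in WT tumors. Rpl37 of the large subunit had 127 and 150 in KO tumors, against 108 and 138 in WT tumors. Rps21 of the small subunit had 113 and 153 in KO tumors, against 104 and 144 in WT tumors. All 3 ranked above the 90th percentile in every library, and their raw heights in the 2 groups overlapped. The lowest were Rpl4, Rps4x and Rpl32. Rpl4, a large subunit protein that lines the exit tunnel, had 39 and 51 read ends in KO tumors, against 27 and 41 in WT tumors, which placed it between the 6.39th and the 12.7th percentile. Its start lies within 1 kb of that of Zwilch on the other strand. Rps4x, a small subunit protein encoded on the X chromosome, had 41 and 52 in KO tumors, against 46 and 52 in WT tumors. Rpl32 had 53 and 60 in KO tumors, against 41 and 61 in WT tumors. The 4 X-linked genes (Rpl10, Rpl36a, Rpl39 and Rps4x) had a median percentile of 42.9, against 61.8 for the 74 autosomal ones. Rpl10, which is needed for the joining of the subunits, was the highest of these with 80 and 102 in KO tumors, against 65 and 103 in WT tumors.

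The order of the genes was much the same in all tumors. Across the 78 genes, log2 heights of 2 libraries correlated with Pearson's r between 0.865 and 0.916, and that of the KO pair was 0.897 and that of the WT pair 0.916, while the 4 pairs of a KO with a WT tumor ranged between 0.865 and 0.907. The KO pair thus lay within the range of the mixed pairs and the WT pair above it. These values are across genes, which are not independent replicates, and they share the depth and base composition of each library.

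The peaks were of ordinary width and centred on the starts. The median width was 1010.5 and 1072.5 bp in KO tumors, against 947 and 1055.5 bp in WT tumors, and 1091 and 1114 bp, against 1002 and 1165 bp, for all open promoters, which put the ribosomal protein genes at a median width percentile of 42.0. The widest was Rpl7 with 1894 and 2126 bp in KO tumors, against 2064 and 2010 bp in WT tumors. It was followed by Rpl15, with 1339 to 1609 bp over the 4 tumors, and Rpl10, with 1211 to 1643 bp. The narrowest was Rps15 with 486 and 485 bp in KO tumors, against 496 and 598 bp in WT tumors. It was followed by Rps28, with 544 to 716 bp, and Rpl36, with 465 to 920 bp. The summit lay within 100 bases of a start for 67.9% and 65.4% of the 78 genes in KO tumors, against 61.5% and 62.8% in WT tumors. The shares for all open promoters were 54.3% and 57.0%, against 56.0% and 54.7%. Related lists described below had similar shares over the 4 tumors. They were 64.1% to 65.4% for mitochondrial ribosomal protein genes, 63.6% to 66.7% for translation factors and 59.0% to 71.8% for ribosome biogenesis genes. Further TOP genes had 61.1%, and mTOR genes had 16.7% to 50%. The local background around the summit, relative to the background of the genome, had a median of 2.32 and 2.52 at these genes in KO tumors, against 2.30 and 2.31 in WT tumors. At all open promoters it was 1.99 and 2.17 in KO tumors, against 2.08 and 2.03 in WT tumors.

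**Figure D2:**
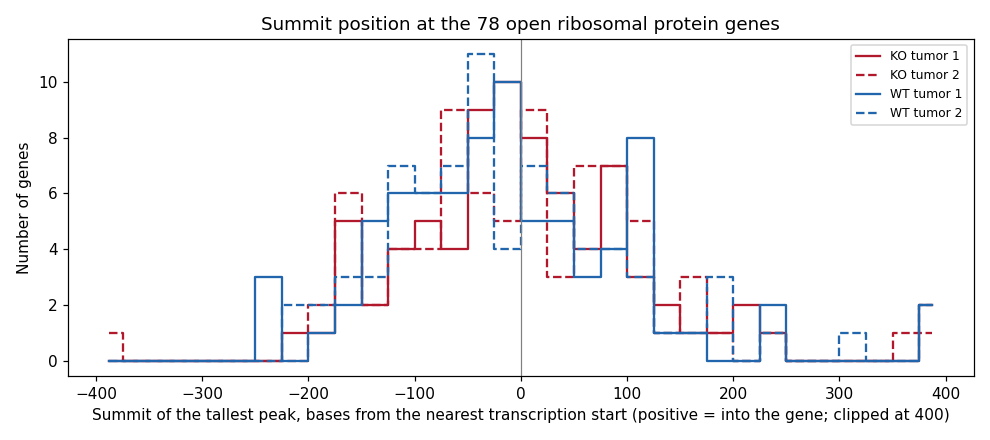
Number of ribosomal protein genes (vertical axis) by the position of the tallest summit relative to the nearest annotated start (horizontal axis, bases, positive into the gene, farther summits drawn at the ends of the axis), 1 line per tumor. Most summits of all 4 tumors lie within 100 bases of a start (61.5% to 67.9% of the 78 genes).

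A promoter with several peaks or a close neighbour was the exception. Rpl18, Rpl41 and Rps14 held 2 peaks in every library, Rpl14 in KO tumor 2 only and Rpl10a in WT tumor 1 only, and no peak was shared by 2 ribosomal protein genes. At Rpl41 the taller peak lay 1295 to 1351 bases downstream of the nearest start, past the end of this short gene. The peak at its own start had 92 and 96 read ends in KO tumors, against 80 and 109 in WT tumors, with overlapping groups. The starts of 14 open genes lay within 1 kb of the start of a gene on the other strand, such as Rps28 with Ndufa7, Rpl15 with Nkiras1 and Rps27 with Rab13. A peak cannot be divided between such neighbours. The 14 genes had a median height percentile of 57.8, against 60.7 for the 64 without one.

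In the comparison of KO with WT tumors, no ribosomal protein promoter passed the test for height. Of the 78 tested, 0 passed an adjusted p of 0.05 in limma, where 0.015% of all 13310 promoters were called higher in KO tumors and 0% lower. The lowest adjusted p among the 78 was 0.998. At an unadjusted limma p under 0.05 there were 6 of 78 (7.69%), against 3.94% of all promoters. This count was 2 with scaling to the genome background, and 3 without the mean-variance trend or with summed heights. It was 7 with promoters of 2500 bp on either side or with equal numbers of peaks in each library. The share of all promoters under these settings is not given here. After centring on the library median, both KO tumors were above both WT tumors at 12 of 78 genes (15% of all promoters) and below at 15 (16.2% of all promoters). The difference, KO minus WT, was positive at 32 genes and negative at 46, where all 13310 promoters had 6466 positive and 6844 negative. Its median was -0.03 on the log2 scale, against -0.0049 over all promoters, and without KO tumor 2 it was -0.02. The median standard error of a gene was 0.12. The 95% confidence interval of the difference lay within 1.5-fold in either direction for 73 of the 78 genes and within 2-fold for all 78, so changes above 2-fold lay outside the interval at every one of these genes.

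**Figure D3:**
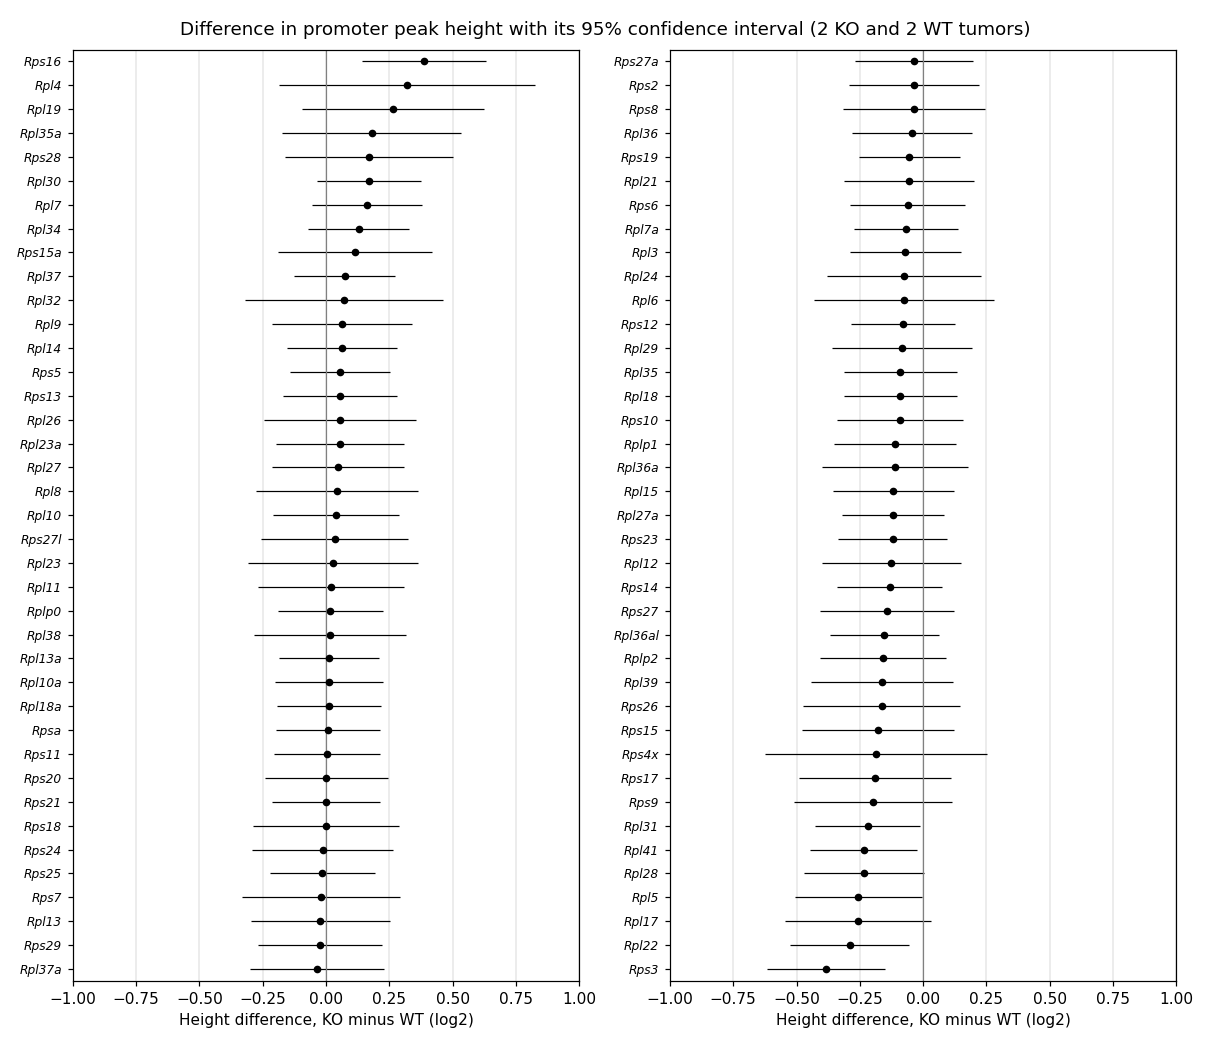
Difference in promoter height, KO minus WT (horizontal axis, log2), with its 95% confidence interval from limma for each of the 78 genes, ordered from the highest to the lowest difference. The estimates run from 0.39 (Rps16) to -0.38 (Rps3), most intervals span 0, and no difference passed the adjusted threshold.

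As a list, the genes stood slightly lower among promoters in both KO tumors than in both WT tumors. Their median height percentile was 56.9 and 56.5 in KO tumors, against 63.4 and 63.7 in WT tumors. On the centred log2 scale the medians were 0.09 and 0.09 in KO tumors, against 0.20 and 0.17 in WT tumors. The groups did not overlap for this median over the 78 genes. The same order was seen in the large subunit (percentiles 54.1 and 54.2 in KO tumors, against 63.4 and 59.6 in WT tumors). In the small subunit (66.6 and 57.1, against 58.5 and 64.8) and the P stalk (73.4 and 53.6, against 68.0 and 74.2) the groups overlapped. These medians describe 4 libraries, with no test over the list. Scaled to the background of the genome instead, the median of all promoters moved to -0.11 and that of these genes to -0.14, and the number of genes with a negative difference was 69 of 78. This scaling moves all genes by the same amount, so the distance between the genes and all promoters cannot change with it, and the count of negative differences follows from the shift. Other lists described below also had median height percentiles without overlap. Further genes with known TOP mRNAs had 67.7 and 71.3 in KO tumors, against 73.5 and 77.0 in WT tumors. Mitochondrial ribosomal protein genes had 46.9 and 42.5, against 49.7 and 49.7. Genes of the mTOR pathway went the other way, with 50.5 and 55.9, against 45.6 and 38.1. For translation factors and ribosome biogenesis genes the groups overlapped.

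The 5 highest differences belonged to Rps16, Rpl4, Rpl19, Rpl35a and Rps28. Rps16, a small subunit protein, had 92 and 104 read ends in KO tumors, against 57 and 85 in WT tumors, a difference of 0.39 (SE 0.12). Its 95% confidence interval ran from 0.14 to 0.63, and its adjusted p in limma was 0.998. Both KO tumors were above both WT tumors in raw height and in percentile (72.3 and 69.2 in KO tumors, against 38.1 and 48.0 in WT tumors). Rpl19 of the large subunit had 58 and 80 in KO tumors, against 48 and 58 in WT tumors (difference 0.27, SE 0.17). Rpl35a, a large subunit protein mutated in Diamond-Blackfan anemia in humans, had 62 and 67 in KO tumors, against 46 and 61 in WT tumors (0.18, SE 0.17). Rps28 had 64 and 74 in KO tumors, against 47 and 69 in WT tumors (0.17, SE 0.16). Rpl4, whose heights are given above, had a difference of 0.32 with the largest standard error of all 78 genes, 0.24. Without the mean-variance trend the standard error of Rpl4 was 0.13. Of these 5, Rps16 is the only one whose 95% confidence interval in the main fit did not include 0.

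The 5 lowest differences belonged to Rps3, Rpl22, Rpl17, Rpl5 and Rpl28. Rps3, which lies at the mRNA entry channel of the small subunit, had 70 and 90 read ends in KO tumors, against 86 and 108 in WT tumors, a difference of -0.38 (SE 0.11). Its 95% confidence interval ran from -0.62 to -0.15, and its adjusted p in limma was 0.998. The raw heights overlapped, while the percentiles, 42.7 and 53.6 in KO tumors, against 77.3 and 74.2 in WT tumors, did not. Rpl22, an RNA-binding large subunit protein, had 77 and 88 in KO tumors, against 87 and 101 in WT tumors (-0.29, SE 0.11). Rpl17 had 64 and 70 in KO tumors, against 66 and 84 in WT tumors (-0.26, SE 0.14). Rpl5 had 69 and 86 in KO tumors, against 78 and 94 in WT tumors (-0.26, SE 0.12). Rpl28 had 78 and 92 in KO tumors, against 87 and 99 in WT tumors (-0.23, SE 0.11). For each of these genes the centred heights of both KO tumors were below those of both WT tumors, and none passed the adjusted threshold. The remaining genes with an unadjusted limma p under 0.05 were Rpl31 (-0.22) and Rpl41 (-0.23). The value of Rpl41 rests on the downstream peak, and with promoters of 500 bp on either side it was -0.09.

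**Figure D4:**
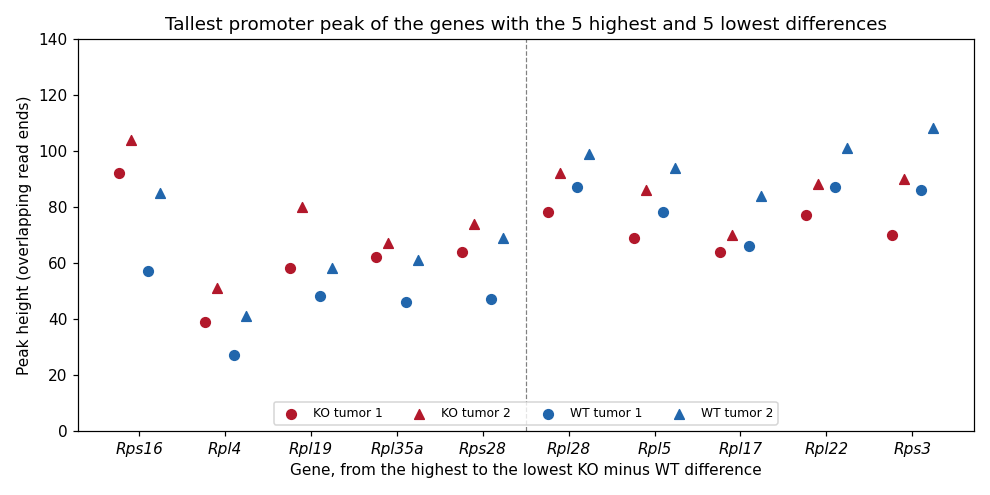
Height of the tallest promoter peak (vertical axis, overlapping read ends) in the 2 KO tumors (red) and the 2 WT tumors (blue) for the genes with the 5 highest differences, left of the dashed line, and the 5 lowest, right of it. At Rps16 the KO tumors (92 and 104) lie above the WT tumors (57 and 85), while at Rps3 the KO tumors (70 and 90) and the WT tumors (86 and 108) overlap before scaling for depth.

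Genes picked for known roles gave small differences with intervals on both sides of 0, Rpl5, Rpl22 and Rps3 above being the exceptions. Rpl11, which together with Rpl5 and the 5S rRNA binds Mdm2 and so stabilizes p53 when ribosome assembly fails, had 78 and 75 read ends in KO tumors, against 61 and 81 in WT tumors (0.02, SE 0.14). Rps19, the gene most often mutated in Diamond-Blackfan anemia in humans, had 120 and 130 in KO tumors, against 105 and 139 in WT tumors (-0.06, SE 0.09). Rps14, the gene of the human 5q deletion syndrome, had 103 and 115 in KO tumors, against 102 and 121 in WT tumors (-0.13, SE 0.10). Rps6 had 88 and 93 in KO tumors, against 78 and 99 in WT tumors (-0.06, SE 0.11). Rpl13a had 119 and 140 in KO tumors, against 103 and 138 in WT tumors (0.01, SE 0.09). Rpl3 had 83 and 103 in KO tumors, against 77 and 106 in WT tumors (-0.07, SE 0.10). Rpsa had 105 and 113 in KO tumors, against 85 and 120 in WT tumors (0.01, SE 0.10). In the stalk, Rplp0, which anchors the P proteins, had 94 and 114 in KO tumors, against 84 and 108 in WT tumors (0.02, SE 0.10). Its partners Rplp1 and Rplp2 had differences of -0.11 (SE 0.11) and -0.16 (SE 0.12).

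For the width of the promoter peaks, too, no gene passed the test. Of the 78 genes, 0 passed an adjusted p of 0.05 in limma, where 0% of all promoters were called, and the lowest adjusted p was 0.999. At an unadjusted limma p under 0.05 there was 1 gene, against 3.88% of all promoters. This gene was Rpl37, with 1101 and 1053 bp in KO tumors, against 1209 and 1371 bp in WT tumors, a difference of -0.29 on the log2 scale (SE 0.11). The centred widths of both KO tumors were above those of both WT tumors at 15 genes (15% of all promoters) and below at 13 (15% of all promoters). The median difference in width was 0.0050, and it was negative without KO tumor 2 (-0.02) or without WT tumor 2 (-0.01). The 95% confidence interval lay within 2-fold for 76 of 78 genes.

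The 2 promoters called in the fit over all genes were no ribosomal protein genes. One was that of Myc, whose product is known to raise the transcription of ribosomal protein genes. Its tallest promoter peak had 192 and 223 read ends in KO tumors, against 64 and 89 in WT tumors, a difference of 1.35 (SE 0.09). The adjusted p in limma was 8.74e-07. This peak is taller in the libraries labelled KO, and because nothing in the peak lists checks those labels, the direction of this call carries the same doubt as the labels. The other was Dynlt1b, which has near-identical copies, so its value is uncertain. At the 6 open ribosomal protein genes whose windows held CACGTG (Rpl13a, Rpl14, Rpl19, Rpl23, Rpl34 and Rps19), the median difference in height was 0.04, against -0.06 at the 52 without it, and none of the 6 passed the adjusted threshold. Gaps between genes with and without a motif were not particular to CACGTG. The median difference was -0.08 at the 35 genes with a pyrimidine tract, against 0.02 at the 23 without one. It was -0.09 at the 17 genes with GGGCGGGG, against -0.02 at the 41 without it. None of these gaps was tested. The number of all promoters called depended on the fit: it was 0 without the mean-variance trend and 0 with the heights of all promoter peaks summed, and without KO tumor 1 it was 163 higher and 66 lower. Among ribosomal protein genes it was 0 in each of these.

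Other genes of the translation machinery were open throughout and none of them was called. Promoter peaks were present in every library for 78 of 78 mitochondrial ribosomal protein genes, 33 of 33 translation factors, 39 of 39 ribosome biogenesis genes, 18 of 18 further genes with known TOP mRNAs and 12 of 12 genes of the mTOR pathway. These lists overlap: many of the TOP genes, Eif3e among them, are also counted as translation factors, and Npm1 also as a ribosome biogenesis gene. In each list 0 genes passed the adjusted limma threshold in either direction. Mitochondrial ribosomal proteins, which are encoded in the nucleus but build the ribosome of the mitochondrion, had a lower median height percentile (48.3) and narrower peaks (median width percentile 34.0) than the cytosolic ones. Translation factors stood at 60.5 in height, ribosome biogenesis genes at 49.8, mTOR genes at 47.4 and the further TOP genes at 71.9. The largest differences in these lists were those of Vim (0.65, SE 0.28), Mrpl3 (0.49, SE 0.30) and Eif3e (0.39, SE 0.14). Vim, the gene for the intermediate filament protein vimentin, had 36 and 80 read ends in KO tumors, against 29 and 35 in WT tumors, and KO tumor 2 stood apart from the other 3. Eif3e, a subunit of the initiation factor that binds the small ribosomal subunit, had 89 and 86 in KO tumors, against 58 and 67 in WT tumors, without overlap. The lowest were Mrps15 (-0.30, SE 0.12) and Fbl (-0.24, SE 0.13), the methyltransferase of box C/D snoRNA particles. Among mTOR genes, Eif4ebp1, a repressor of cap-dependent translation, had a difference of 0.36 (SE 0.21).

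**Figure D5:**
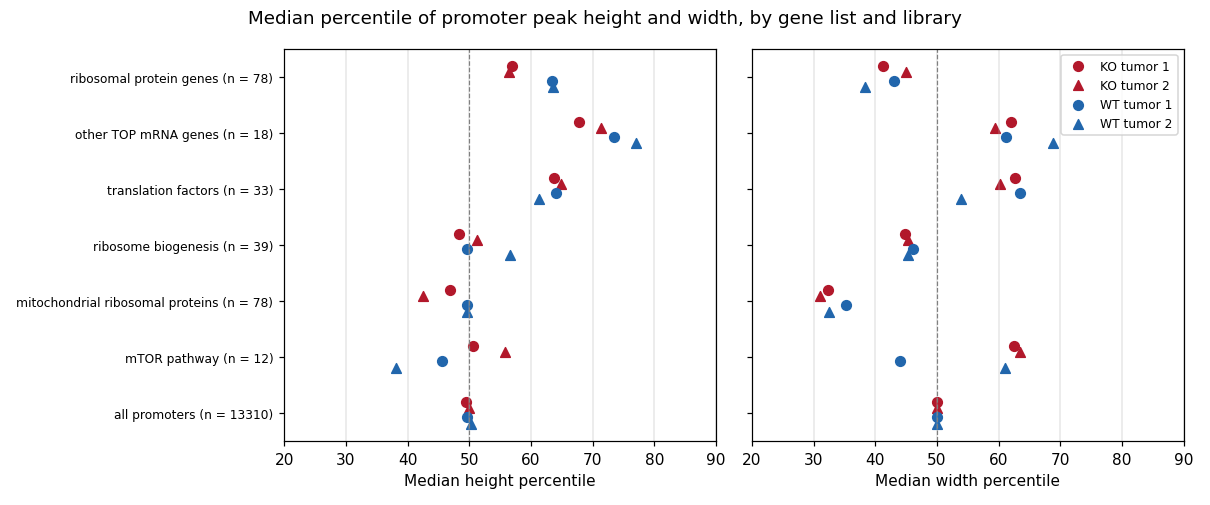
Median percentile of promoter peak height (left) and width (right) among the 13310 promoters open in all 4 libraries, for each gene list (rows) and tumor (KO in red, WT in blue). Ribosomal protein genes stand at 56.5 to 63.7 in height and 38.3 to 44.9 in width, with both KO medians below both WT medians in height. The same order in height is seen for the other TOP mRNA genes and the mitochondrial ribosomal proteins, and the reverse order for the mTOR pathway.

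The ribosomal and related genes outside the symbol rule that are given here were also open in every library, and none was called in limma. Rps3a1 had 87 and 99 read ends in KO tumors, against 79 and 98 in WT tumors (-0.03, SE 0.10). Fau, which encodes a ubiquitin-like protein fused to a small subunit protein, had 79 and 95 in KO tumors, against 79 and 103 in WT tumors (-0.16, SE 0.11). Rack1, a scaffold protein on the small subunit, had 86 and 109 in KO tumors, against 84 and 111 in WT tumors (-0.10, SE 0.10). Rpl22l1, the paralog of Rpl22, had 103 and 107 in KO tumors, against 89 and 109 in WT tumors (-0.01, SE 0.10), and was taller than Rpl22 in every library. Rpl7l1, the paralog of Rpl7, had 67 and 63 in KO tumors, against 55 and 90 in WT tumors (-0.22, SE 0.16).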

How the data were processed

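The labels describe tumor tissue, whereas the study's methods describe freshly isolated tumor cells, and the sources used here do not settle which was used. Peaks were called by the authors on each library alone and not on pooled replicates. MACS2, HOMER and mm10 are named in the submitters' processing notes. The study's methods describe Bowtie2 alignment to GRCm38.p6, filters on mitochondrial and duplicate reads, and Genrich as the caller. The deposited columns follow MACS2 arithmetic. No source used here says whether reads were shifted for the transposase. For each peak the authors deposited a fold (the ratio of height to local background), a −log10 p-value, a −log10 q-value and a whole-number score that restates the q-value.

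The height of each peak was recovered as the whole number of read ends whose Poisson tail at the background implied by the fold gives the −log10 p. It matched within 0.001 in all but 2 of 331481 peaks and in the tallest promoter peak of every open ribosomal protein gene. Whether the 2 peaks lie at other promoters described was not checked. Recovery and the limma fit were tested on simulated data. Depth in reads is unknown, so heights have no counting interval.

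Promoters were 1000 bp on either side of any of 41538 GENCODE M21 starts, with 1 bp of overlap. The tallest peak gave the height and the widest the width. Promoters with a peak in all 4 libraries (13310) were fitted together with limma 3.58.1 in R 4.3.3 (log2 values centred on the library median, mean-variance trend, Benjamini-Hochberg adjustment over all of them, threshold 0.05). Differences are KO minus WT. Presence, levels, lists and motifs were described without a test.

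The genes named were those without a peak, past the threshold, with the 5 highest or 5 lowest differences, the 3 tallest, lowest, widest and narrowest, and those of known roles. In the lists beside them, up to 3 with the largest difference were named. Genes outside these groups were chosen after their values were seen, as were Dynlt1b, Rpl31 and Rpl41. The members and lists were chosen with earlier results of these data known. Alternatives were other scalings, windows, peak thresholds, filters, left-out tumors and replicate blocks. Pseudogenes and non-coding genes were left out. Some listed genes are not reported here.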

Additional observations from a re-analysis of the deposited data

How the results depend on the processing

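The presence of a peak at 78 of 82 ribosomal protein promoters in every library used was the same under all 9 alternatives. For height, 0 of 78 genes passed the adjusted limma threshold under each of 15 alternatives, and the lowest adjusted p ranged from 0.0807 to 1.00 over them. For width, 0 passed under each of 15 alternatives, with a lowest adjusted p between 0.479 and 1.00. The 12 genes followed for height and the 1 for width kept their direction in all 195 recomputed values. These genes were picked from the same 4 libraries for extreme differences or a low unadjusted limma p, so a kept direction was likely beforehand. The replicate blocks and the fit without the mean-variance trend leave each difference unchanged by design. The kept direction is therefore no separate support for these differences. The median percentile of mean log2 height was 61.3, and it ranged between 56.2 and 62.2.

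The number of all promoters called was 2 higher and 0 lower in KO tumors. It was 3 and 7 with scaling to the genome background, which moved the median of all promoters by over 0.1 (to -0.11), 1 and 0 with quantile normalization, 2 and 2 with either other window, with the stricter peak threshold or with equal numbers of peaks, 2 and 1 with the filter on low heights, and 0 and 0 without the mean-variance trend or with summed heights. Leaving out 1 tumor gave 163 and 66 (without KO tumor 1), 4 and 6 (without KO tumor 2), 2 and 2 (without WT tumor 1) and 3 and 0 (without WT tumor 2). For width it gave 8 and 24 without KO tumor 1 and 0 in the main fit. In these fits the lone tumor is assumed to vary like the other group. The cause of these changes was not tested.

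Tumor numbers are shared by the groups, but nothing in the labels pairs them, and the deviations of the same-numbered tumors correlated with r = -0.20 for height and r = -0.12 for width across genes. With the replicate block, 6 promoters were called higher and 6 lower, with 0 ribosomal protein genes among them for height and 0 for width. A crossed replicate block, added after seeing the data, called 23 higher and 12 lower for height and 0 for width, again with 0 ribosomal protein genes.

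With 2 tumors a group, a gene's height difference had a median standard error of 0.12, and differences of over 3 times that size (Rps16, 0.39, and Rps3, -0.38) were not called, so changes of this order at single genes cannot be called here. A promoter without a peak has no recovered height.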

Other observations

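Many ribosomal protein genes carry small nucleolar RNAs (snoRNAs), guides for the modification of ribosomal RNA, in their introns. Among the 78 open genes, 29 had at least 1 annotated snoRNA on the same strand within the gene. Their median height percentile was 61.9, against 56.3 for the 49 others, and their median height difference, KO minus WT, was -0.02, against -0.04. Rpl4, the lowest of the 78 promoters, held the most, with 5, so a snoRNA host need not have a tall peak.

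Base composition went with height among these genes. Over the 58 genes with a RefSeq window, the GC content of the window and the mean height percentile had a Spearman's rho of 0.56, and over 10360 open promoters it was 0.24. For the CpG observed over expected ratio the values were 0.05 and 0.33. These are correlations across genes, which share the base composition bias of each library, and they are given as descriptions without a test. The median height percentile of the 35 genes with a pyrimidine tract at the start was 63.2, against 54.3 for the 23 without one, and that of the 24 genes with CCGGAAG was 65.6, against 55.6 for the 34 without it. Larger gaps were seen for CACGTG (77.6 with it, 55.6 without), ACCAAT (69.1 and 54.3) and GGGCGGGG (67.4 and 54.0). Genes with TGACGTCA, AAGATGGCG or GCATGCGC stood lower, at 44.8, 52.9 and 54.3, each against 60.7 without it.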
